A study of Homo sapiens with 6 samples.

Results

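Of the 58735 genes in the deposited count table, 10 that use or break down tryptophan are described here. They are the tryptophan dioxygenases IDO1, IDO2 and TDO2, the kynurenine pathway enzymes AFMID, KMO, KYNU, HAAO, QPRT and ACMSD, and the cytosolic tryptophanyl-tRNA synthetase WARS. They were picked by gene name with their counts in these 6 libraries already known, so their differences between the groups are given as descriptions, without a test. All 10 were among the 17844 genes that passed the filter on low counts, IDO1 only through 1 group of libraries.

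Most tryptophan that a body does not build into protein is broken down along the kynurenine pathway, and the liver carries the bulk of that flow. A dioxygenase opens the indole ring, TDO2 in hepatocytes and IDO1 in many cells exposed to interferon-gamma, and AFMID then removes the formyl group to give kynurenine. KMO, KYNU and HAAO take kynurenine on to a short-lived intermediate that QPRT draws into NAD synthesis when it has closed to quinolinate, while ACMSD diverts it toward complete oxidation. WARS does not belong to that chain. It loads tryptophan onto its transfer RNA, and it is known as an interferon-gamma-induced gene like IDO1.

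Polyadenylated RNA was sequenced from HepaRG, a human liver progenitor line that was kept for 2 weeks in 1.8% DMSO to differentiate. All 6 samples were then given siRNA for 48 h followed by fatty acids for 24 h, oleic acid at 800 µM with palmitic acid at 400 µM. Libraries labelled PTPF (n = 3) were set against libraries labelled STATF (n = 3). The labels do not spell out either name; they list siRNAs against PTPRD, a receptor-type tyrosine phosphatase, and against STAT3, a cytokine-activated transcription factor. No library labelled as control siRNA was analysed here, so a difference cannot be assigned to either label. Nothing in the labels says whether the 3 libraries of a group came from separate cultures, and the p-values given below measure only the spread between these samples, which may be technical.

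Gene counts totalled 33225627 to 36785080 in libraries labelled PTPF and 36443380 to 40796767 in libraries labelled STATF. STAT3 averaged 443.3 ± 12.2 CPM (read counts scaled for library size and composition) in libraries labelled PTPF and 119.6 ± 10.6 CPM in libraries labelled STATF (SD, n = 3 each; log2 fold change 1.89, edgeR adjusted p = 2.47e-18). PTPRD averaged 11.5 ± 1.37 CPM in libraries labelled PTPF and 11.5 ± 0.603 CPM in libraries labelled STATF (edgeR adjusted p = 0.999). Since PTPRD was not lower under the PTPF label, every direction below is one between libraries by label. As to the labelled cell type, the 8 hepatocyte markers summed to 63740 to 75710 CPM in libraries labelled PTPF and 49600 to 51320 CPM in libraries labelled STATF, and ALB, the main plasma protein, averaged 12010 ± 797 CPM in libraries labelled PTPF and 14870 ± 549 CPM in libraries labelled STATF (SD, n = 3 each; edgeR adjusted p = 0.00164). The 8 markers were split, with ALB, APOA1 and TF called lower (log2 fold changes of -0.31, -0.25 and -0.38), SERPINA1, FGB and HP called higher (0.71, 1.06 and 1.24) and TTR and APOB not called. Of the biliary markers, the cell-surface protein EPCAM had 0 counts in all 6 libraries, whereas the keratin KRT19 averaged 75.7 ± 6.40 CPM in libraries labelled PTPF and 112.7 ± 10.3 CPM in libraries labelled STATF (edgeR adjusted p = 6.07e-07). The 6 biliary and progenitor markers summed to 86.2 to 97.8 CPM in libraries labelled PTPF and 125.0 to 143.9 CPM in libraries labelled STATF, and the part of these markers in the differences below was not tested. In edgeR's quasi-likelihood test 21.6% of all genes were called at an adjusted p of 0.05, with 11.6% lower and 10.1% higher in libraries labelled PTPF. Of the 10 genes described, 5 lay past that threshold, 4 lower and 1 higher, and nothing is read from that share because the same contrast chose them.

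**Figure D1:**
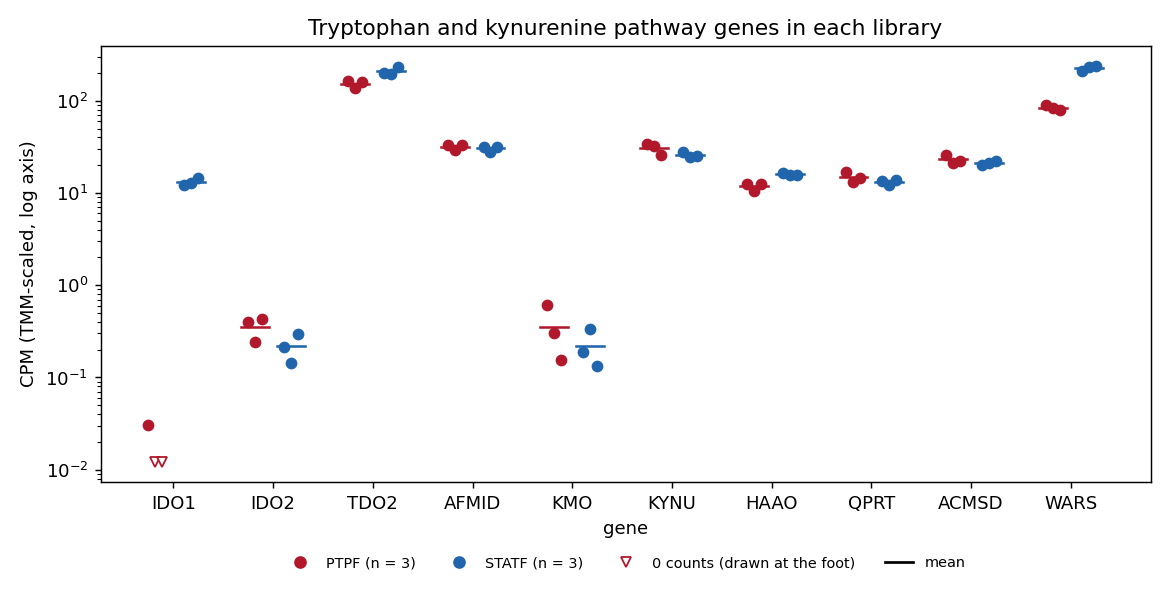
Level of each of the 10 genes in every library, in CPM on a log axis, with libraries labelled PTPF (red, n = 3) left of libraries labelled STATF (blue, n = 3), bars at the group means (none drawn for IDO1 in libraries labelled PTPF) and open triangles at the foot for 0 counts. IDO1 spans from 0 counts to 14.6 CPM and WARS separates by a wide gap, while AFMID, KYNU, QPRT and ACMSD overlap between the labels.

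Of the 3 dioxygenase genes, IDO1 had the widest gap, with next to no reads in libraries labelled PTPF and a readable level in libraries labelled STATF. It lies on chromosome 8. The libraries labelled PTPF held 1, 0 and 0 IDO1 counts (0.0303, 0 and 0 CPM), and those labelled STATF held 461, 531 and 547 (12.3, 12.8 and 14.6 CPM). The groups were far apart, and all 3 STATF-labelled libraries lay close together. A count of 0 allows up to 3 counts, which is 0.0818 CPM in PTPF library 2 and 0.0919 CPM in PTPF library 3. On 1 count against 1539 counts, the ratio of libraries labelled STATF over libraries labelled PTPF was 1350, with a 95% counting interval from 242 to 53370. The fitted log2 fold change of -9.97 depends on the prior count of the model and is no bound. In a bulk sample fewer cells that express a gene and less of its RNA per cell cannot be told apart.

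IDO1 is also known from dendritic cells, macrophages and endothelium, and markers of those and other cell types were read in the same libraries. Of 10 myeloid and dendritic markers, CD1C and CLEC9A had 0 counts in all 6 libraries, and PTPRC, which all white blood cells carry, had 1 count in all. ITGAM was the most abundant, averaging 3.59 CPM in libraries labelled PTPF and 3.355 CPM in libraries labelled STATF. CD163 followed, averaging 1.10 CPM in libraries labelled PTPF and 1.44 CPM in libraries labelled STATF. The 10 markers together came to 5.33 to 6.43 CPM in libraries labelled PTPF and 6.47 to 7.25 CPM in libraries labelled STATF. Of the 4 that could be tested 0 passed in edgeR, DESeq2 or limma-voom, and 1, the integrin ITGAX, had an unadjusted p under 0.05 in edgeR. ITGAX was on the lower side, at 0.600 CPM in libraries labelled PTPF and 1.02 CPM in libraries labelled STATF (log2 fold change -0.77). MARCO, CD163 and ITGAM had log2 fold changes of -0.61, -0.375 and 0.10, and the median of the 4 was -0.49. Summed endothelial markers stood at 33.6 to 39.7 CPM in libraries labelled PTPF and 57.8 to 61.7 CPM in libraries labelled STATF. Nearly all of that sum was KDR, a growth factor receptor, whereas VWF, CDH5 and TEK stayed under 0.2 CPM on average in either group. KDR was lower under the PTPF label, at 35.8 ± 3.36 CPM in libraries labelled PTPF and 57.6 ± 2.225 CPM in libraries labelled STATF (SD, n = 3 each; log2 fold change -0.69, edgeR adjusted p = 7.03e-09). PECAM1 and STAB2 did not pass (-0.63 and -0.09). The 6 T and NK cell markers summed to 1.58 to 2.21 CPM in libraries labelled PTPF and 1.297 to 1.897 CPM in libraries labelled STATF, with CD3E and CD2 at 0 counts throughout. Most of that sum was CD3D, averaging 1.42 CPM in libraries labelled PTPF and 1.10 CPM in libraries labelled STATF. The 6 stellate and fibroblast markers summed to 57.3 to 71.0 CPM in libraries labelled PTPF and 56.3 to 73.3 CPM in libraries labelled STATF. Of these, ACTA2, a smooth muscle actin, was lower under the PTPF label, at 20.6 ± 1.60 CPM in libraries labelled PTPF and 26.2 ± 0.965 CPM in libraries labelled STATF (SD, n = 3 each; log2 fold change -0.35, edgeR adjusted p = 0.000751), and the other 4 tested did not pass. The part of these markers in the IDO1 difference was not tested.

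TDO2, the dioxygenase that hepatocytes use, was the abundant one and was also lower under the PTPF label. It had 161.8, 138.0 and 160.2 CPM in libraries labelled PTPF, against 199.1, 195.3 and 234.4 CPM in libraries labelled STATF. Every PTPF-labelled library was below every STATF-labelled one, and STATF library 3 stood above its own group. The log2 fold change was -0.45 (SE 0.0716, 95% interval from -0.60 to -0.30), which is 0.731-fold. The gene spans chromosome 4 from 155854738 to 155920406 on the plus strand of GRCh38, and none of its exon bases is shared with another gene. IDO2, the relative that lies next to IDO1, was nearly silent, with 13, 9 and 14 counts in libraries labelled PTPF and 8, 6 and 11 counts in libraries labelled STATF. Those ranges overlapped, and the log2 fold change of 0.71 had a 95% interval from -0.27 to 1.69. Depth therefore does not allow a direction for IDO2.

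Per unit of deposited gene length, these dioxygenases can be set beside one another. Levels in TPM (counts divided by the deposited gene length and scaled to 1 common total per library) summed over IDO1, IDO2 and TDO2 to 72.7, 65.8 and 76.2 in libraries labelled PTPF, against 108.6, 105.2 and 123.2 in libraries labelled STATF. TDO2 made up 99.7%, 99.8% and 99.7% of that sum in libraries labelled PTPF, against 90.8%, 90.4% and 90.7% in libraries labelled STATF. IDO1 accounted for 0.0302%, 0% and 0% of it in libraries labelled PTPF and for 9.05%, 9.53% and 9.13% in libraries labelled STATF. So even where IDO1 was read, TDO2 remained the main dioxygenase transcript, and TDO2 made up most of the difference between the sums. The IDO1 share in libraries labelled STATF depended on the length used. It was 9.24% ± 0.255 (SD, n = 3) with the deposited length, 5.93% with none and 5.34% with the length of the principal coding transcript, an alternative added after the data were seen.

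**Figure D2:**
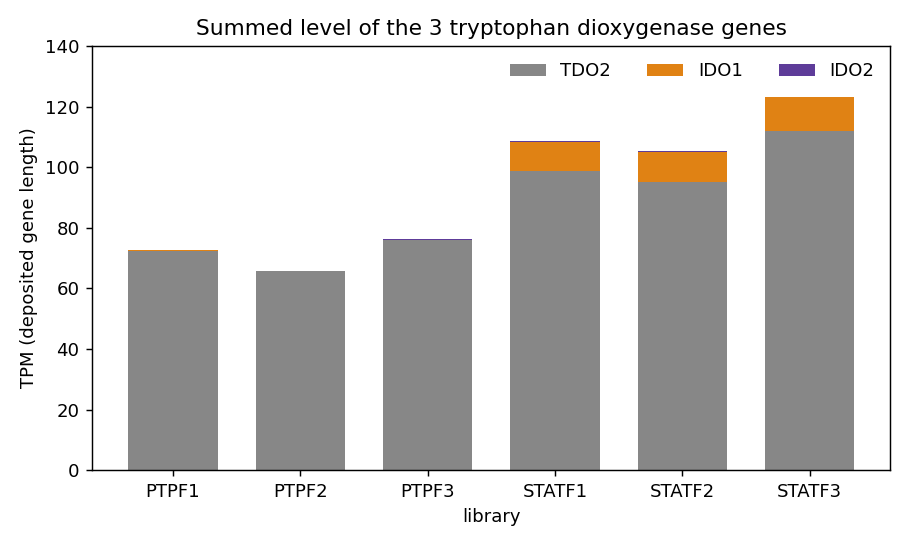
Summed transcript level of TDO2 (grey), IDO1 (orange) and IDO2 (purple) in each library, in TPM from the deposited gene lengths, with the libraries labelled PTPF on the left and those labelled STATF on the right. The bars reach 65.8 to 76.2 TPM in libraries labelled PTPF and 105.2 to 123.2 TPM in libraries labelled STATF, where the IDO1 segment is visible.

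The stretch upstream of the TDO2 start in RefSeq is printed because TDO2 carried most of the dioxygenase RNA. It covers chr4:155903446-155903692 on the plus strand (RefSeq, GRCh38.p14), outside all annotated exons of the gene. Its 300-base promoter window held no match to either of the letter patterns for interferon-responsive elements searched here on both strands, the ISRE (GAAA, 2 bases of any kind, GAAA) and the GAS (TTCNNNGAA). Of 35116 RefSeq promoter windows, 3.57% held the first, 7.66% the second and 10.8% at least one of them.
TDO2 upstream: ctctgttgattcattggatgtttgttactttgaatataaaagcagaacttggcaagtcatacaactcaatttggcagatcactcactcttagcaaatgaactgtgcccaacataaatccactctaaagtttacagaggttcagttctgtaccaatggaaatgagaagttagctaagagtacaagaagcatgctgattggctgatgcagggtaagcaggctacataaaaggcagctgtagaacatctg
A match or its absence in such a window describes letters and does not show binding. Promoter windows were found for 7 of the 10 genes. None was found for IDO1, IDO2 or ACMSD, so their promoters were not searched.

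AFMID, which makes kynurenine, hardly differed between the labels. It had 32.98, 28.9 and 32.9 CPM in libraries labelled PTPF and 31.9, 27.7 and 31.8 CPM in libraries labelled STATF. The second library was the lowest of its group in both, and the groups overlapped almost entirely. Its log2 fold change of 0.05 had a 95% interval that ran from -0.10 to 0.20.

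Kynurenine itself can be hydroxylated by KMO, or turned into kynurenic acid by aminotransferases, and in these cells the RNA for the first route was almost missing. KMO had 20, 11 and 5 counts in libraries labelled PTPF and 7, 14 and 5 counts in libraries labelled STATF. The counts scattered as widely within a group as between groups, and the log2 fold change of 0.66 (95% interval from -0.41 to 1.73) was 0.05 without PTPF library 1. Of KMO's exon bases 28.4% are shared with OPN3 on the opposite strand, an opsin gene at 17.6 CPM in libraries labelled PTPF and 16.9 CPM in libraries labelled STATF. Strandedness of the counting is not given in the sources used here, so some of these few reads may belong to OPN3. Per length, KMO was 0.156% ± 0.0958 of the summed TPM of KMO and 4 aminotransferases in libraries labelled PTPF and 0.0862% ± 0.0387 in libraries labelled STATF (SD, n = 3 each). Most of that sum was the aminotransferase GOT2, averaging 62.8 TPM in libraries labelled PTPF and 77.3 TPM in libraries labelled STATF.

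The 4 aminotransferase genes were AADAT, KYAT1, KYAT3 and GOT2, and of these GOT2 alone passed the test (25.0%, beside 21.6% of all genes). GOT2, the mitochondrial aspartate aminotransferase that also acts on kynurenine, had 100.7, 94.7 and 94.0 CPM in libraries labelled PTPF, against 109.3, 119.3 and 112.4 CPM in libraries labelled STATF. It was lower under the PTPF label without overlap, by a small amount (log2 fold change -0.24, SE 0.0556, edgeR adjusted p = 0.0023). AADAT, KYAT1 and KYAT3 had log2 fold changes of -0.02, -0.19 and -0.01 and did not pass. The median over the 4 was -0.11, beside 0.00 over all genes tested.

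KYNU cleaves kynurenine and 3-hydroxykynurenine, and it was the only one of the 10 that lay past the threshold on the higher side. It had 33.9, 31.9 and 26.1 CPM in libraries labelled PTPF, against 27.6, 24.7 and 25.4 CPM in libraries labelled STATF. PTPF libraries 1 and 2 stood above all others while PTPF library 3 fell inside the STATF range, so the groups overlapped. The log2 fold change was 0.24 (SE 0.0807, 95% interval from 0.08 to 0.41). Its place past the threshold was lost without PTPF library 1 (0.17), PTPF library 2 (0.22), STATF library 2 (0.21) or STATF library 3 (0.23), and also with scaling by library totals alone (0.18).

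The KYNU promoter window is shown for the GAS pattern that lies close to its start, 34 bases upstream. Of the 250 bases upstream of that start, 166 lie within annotated exons, the printed ones among them. The 30 bases cover chr2:142877620-142877649 on the plus strand (RefSeq, GRCh38.p14), with the pattern in capitals.
KYNU GAS: gtctgagcagTTCTTTGAAtttctcaccct
A second GAS match began at base 6 after the start.

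HAAO, which opens the ring of 3-hydroxyanthranilate, was lower under the PTPF label, at a log2 fold change close to that of TDO2. It had 12.4, 10.6 and 12.6 CPM in libraries labelled PTPF, against 16.7, 15.7 and 15.7 CPM in libraries labelled STATF. The highest PTPF-labelled library was below the lowest STATF-labelled one. The log2 fold change was -0.43 (SE 0.085, 95% interval from -0.61 to -0.26), which is 0.742-fold. HAAO shares no exon base with another gene, and its upstream sequence is printed beside that of TDO2 since these were the 2 well-read kynurenine pathway enzymes whose groups did not overlap. The stretch outside its exons covers chr2:42792594-42792833 on the minus strand (RefSeq, GRCh38.p14), and neither pattern was found in its promoter window.
HAAO upstream: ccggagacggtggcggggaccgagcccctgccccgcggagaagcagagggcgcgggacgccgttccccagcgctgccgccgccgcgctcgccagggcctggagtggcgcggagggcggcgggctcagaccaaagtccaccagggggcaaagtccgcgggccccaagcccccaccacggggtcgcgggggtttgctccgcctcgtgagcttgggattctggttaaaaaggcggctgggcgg
The 2 windows were unlike in base composition, with 41.3% G and C for TDO2 and 74.7% for HAAO.

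At the branch after HAAO, the groups overlapped for both exits. QPRT, the entry to NAD, had 16.8, 13.2 and 14.5 CPM in libraries labelled PTPF and 13.5, 12.2 and 13.8 CPM in libraries labelled STATF. ACMSD, the exit to oxidation, had 25.9, 21.3 and 22.2 CPM in libraries labelled PTPF and 20.3, 21.0 and 22.4 CPM in libraries labelled STATF. In both genes PTPF library 1 was the highest of all 6, and the lowest PTPF-labelled library lay inside the STATF range. The log2 fold changes were 0.17 for QPRT (95% interval from -0.01 to 0.36) and 0.12 for ACMSD (SE 0.0777). ACMSD made up 67.1% ± 0.599 of the summed TPM of ACMSD and QPRT in libraries labelled PTPF and 67.9% ± 1.51 in libraries labelled STATF (SD, n = 3 each). The ranges of that share overlapped between the labels. Of QPRT's exon bases 15.7% are shared with a gene that had 0 counts in all 6 libraries.

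The genes that follow ACMSD, and those of NAD synthesis and salvage, were read from the same fit. Toward oxidation, 2 of 6 genes passed (33.3%, beside 21.6% of all genes), both lower under the PTPF label. They were DHTKD1, a subunit of the 2-oxoadipate dehydrogenase, at 53.3 ± 1.37 CPM in libraries labelled PTPF and 67.2 ± 0.601 CPM in libraries labelled STATF (SD, n = 3 each; log2 fold change -0.33, edgeR adjusted p = 4.58e-05), and the enoyl-CoA hydratase ECHS1 (-0.25, edgeR adjusted p = 0.0243). ALDH8A1, the dehydrogenase next after ACMSD, averaged 1.71 CPM in libraries labelled PTPF and 1.13 CPM in libraries labelled STATF and did not pass (0.59, edgeR adjusted p = 0.125). The ECHS1 call was lost without PTPF library 2 (-0.15), PTPF library 3 (-0.25), STATF library 1 (-0.24) or STATF library 3 (-0.25), and the ALDH8A1 value passed without PTPF library 2 (0.80).

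Of the NAD synthesis and salvage genes, which include some that do not follow QPRT, 4 of 11 tested passed (36.4%, beside 21.6% of all genes), 3 higher and 1 lower. The abundant ones belonged to the routes that do not start from tryptophan. NAMPT, which recycles nicotinamide into NAD, had 1915, 1928 and 1845 CPM in libraries labelled PTPF, against 953.1, 1057 and 1048 CPM in libraries labelled STATF. NNMT, which methylates nicotinamide for disposal, had 1270.0, 1051 and 1101 CPM in libraries labelled PTPF, against 601.3, 626.5 and 612.2 CPM in libraries labelled STATF. Neither gene's groups overlapped, and both had a log2 fold change of 0.90 (edgeR adjusted p = 1.29e-11 for NAMPT and 4.8e-11 for NNMT). AOX1, an oxidase that also takes nicotinamide derivatives, was higher by 0.26 (edgeR adjusted p = 0.00355), and the nuclear adenylyltransferase NMNAT1 was lower (-0.28, edgeR adjusted p = 0.0155). NMNAT2, NMNAT3 and NADSYN1, which act after QPRT as NMNAT1 does, did not pass (0.13, -0.25 and 0.06). AOX1 did not pass without PTPF library 3 (0.20), and NMNAT1 did not pass without PTPF library 2 (-0.20) or STATF library 3 (-0.23). As a share of the summed TPM of QPRT, NAPRT and NAMPT, the 3 enzymes that feed NAD from quinolinate, nicotinate and nicotinamide, QPRT had 2.06%, 1.61% and 1.84% in libraries labelled PTPF, against 3.17%, 2.62% and 2.98% in libraries labelled STATF. That share was lower in every PTPF-labelled library, whereas QPRT's own level overlapped, and NAMPT made up most of the sum.

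**Figure D3:**
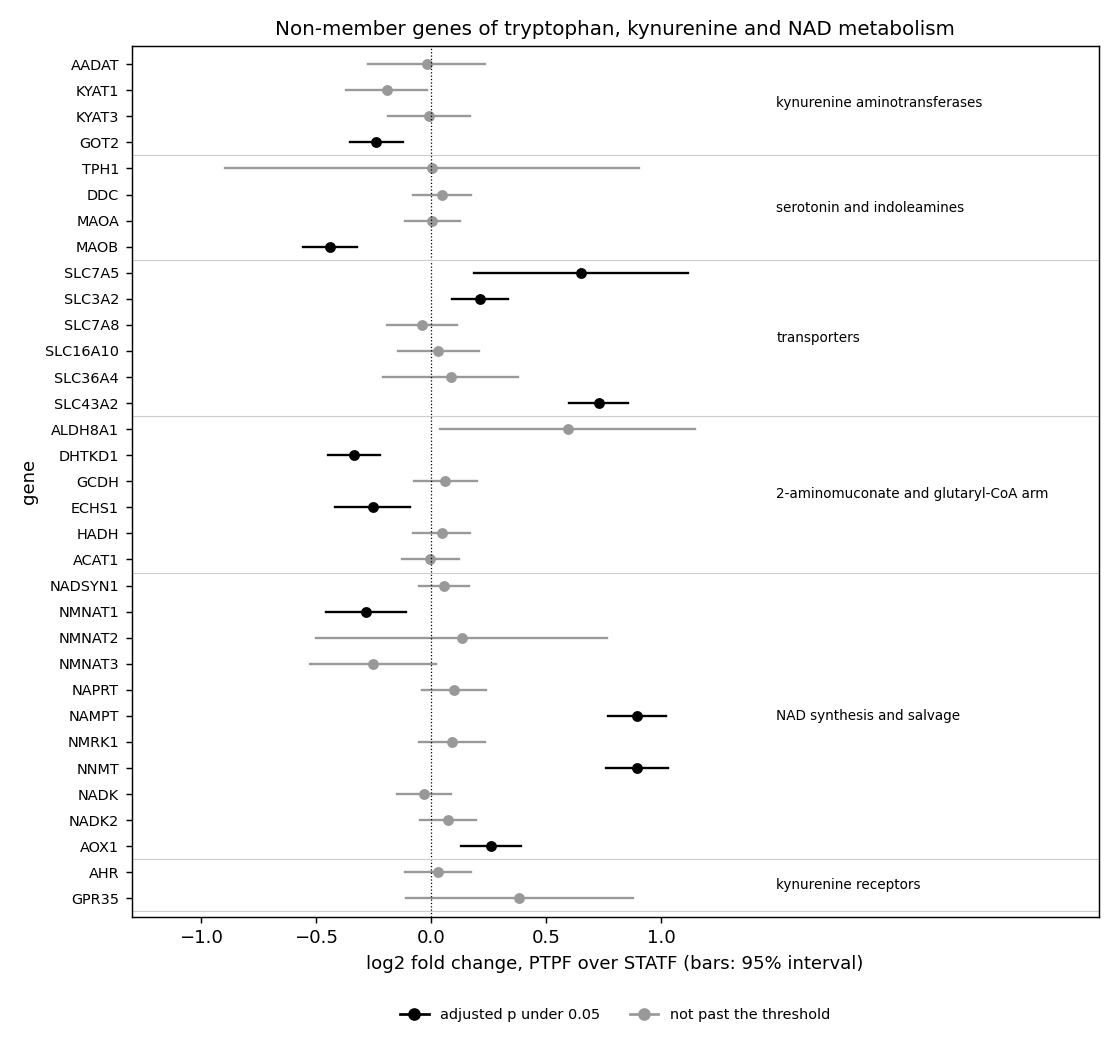
Log2 fold change of libraries labelled PTPF over libraries labelled STATF (points, 95% intervals as bars) for 33 tested genes around the pathway, none of them among the 10 described, grouped by role, with black for an adjusted p under 0.05. NAMPT, NNMT and SLC43A2 stand farthest to the right and MAOB farthest to the left among the genes that passed.

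Amino acid transporter genes, and genes that use tryptophan outside the kynurenine chain, were read the same way. These RNA levels do not measure tryptophan uptake, and the transporters also carry other amino acids. Of 6 transporter genes tested, 3 were higher under the PTPF label and 3 did not pass. SLC43A2, a carrier of large neutral amino acids, had 94.7, 91.8 and 107.5 CPM in libraries labelled PTPF, against 56.8, 62.3 and 58.2 CPM in libraries labelled STATF (log2 fold change 0.73, edgeR adjusted p = 7.88e-10). SLC3A2, the heavy chain of the LAT1 carrier, had a log2 fold change of 0.21 (edgeR adjusted p = 0.00902). The LAT1 light chain SLC7A5 was scarce, at 1.70 ± 0.208 CPM in libraries labelled PTPF and 1.08 ± 0.152 CPM in libraries labelled STATF (SD, n = 3 each; 0.65, edgeR adjusted p = 0.0393), and it passed in 6 of 14 alternative settings. SLC3A2 lost its call without STATF library 2 (0.21) or STATF library 3 (0.20). SLC7A5 lost its call without each library other than PTPF library 1 (0.55 to 0.73). Of the serotonin and indoleamine genes, 4 of 9 could be tested and MAOB, a monoamine oxidase, was the 1 that passed (25.0%, beside 21.6% of all genes). MAOB averaged 132.1 ± 8.78 CPM in libraries labelled PTPF and 179.2 ± 3.51 CPM in libraries labelled STATF (SD, n = 3 each; log2 fold change -0.44, edgeR adjusted p = 1.28e-06). The more abundant MAOA averaged 488.0 CPM in libraries labelled PTPF and 486.0 CPM in libraries labelled STATF and did not pass (0.01), nor did DDC (0.05). TPH1, which starts serotonin synthesis, had 7 to 23 counts per library. AHR and GPR35, receptors for kynurenine and kynurenic acid, did not pass (0.03 and 0.38, with 0 of the 2 under an unadjusted p of 0.05 in edgeR and 0 called by DESeq2 or limma-voom). Across these lists, those of the aminotransferases, the oxidation arm and NAD, and the mitochondrial synthetase WARS2, 11 of 34 non-member genes tested passed (32.4%, beside 21.6% of all genes), 6 of them higher and 5 lower. Their median log2 fold change was 0.04.

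WARS had the widest gap among those of the 10 genes that were read well in both groups. It had 89.1, 83.9 and 79.3 CPM in libraries labelled PTPF, against 211.0, 234.1 and 239.4 CPM in libraries labelled STATF. Each PTPF-labelled library held less than any STATF-labelled library, and the spread within a group was small beside the gap. The log2 fold change was -1.44 (SE 0.0611, 95% interval from -1.57 to -1.31), which is 0.369-fold, and 1.65% of all genes tested had a log2 fold change under -1. Of its exon bases 10.6% are shared with 2 genes on the opposite strand, one at 0 counts and WDR25 at 10.4 CPM in libraries labelled PTPF and 9.17 CPM in libraries labelled STATF.

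RefSeq gives WARS 2 starts on chromosome 14, and the printed stretches are the pattern matches of the downstream one. The ISRE begins 55 bases and the GAS 142 bases before that start, and capitals mark the pattern. All 250 bases upstream of that start lie within annotated exons, so both matches do. The printed stretches cover chr14:100375383-100375412 and chr14:100375470-100375499 on the minus strand (RefSeq, GRCh38.p14).
WARS ISRE: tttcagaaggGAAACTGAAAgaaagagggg
WARS GAS: gctcaagtgtTTCTGAGAAtctgggtgatt
The window of the upstream start held neither pattern. Counts per gene sum both starts, so the WARS difference cannot be split between them here.

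Among the other aminoacyl-tRNA synthetases none was called in the direction of WARS. Of 19 cytosolic synthetase genes, all tested, 6 were higher under the PTPF label (31.6%, beside 10.1% of all genes), 0 were lower and 13 did not pass, and the median log2 fold change was 0.13. DESeq2 and limma-voom also called 0 lower, and 1, QARS, was lower at an unadjusted p under 0.05 in edgeR. The 6 were FARSB, IARS, LARS, MARS, TARS and YARS, which load phenylalanine (as a subunit), isoleucine, leucine, methionine, threonine and tyrosine. YARS had the highest value, 0.27 (edgeR adjusted p = 0.00353), at 119.9 ± 11.8 CPM in libraries labelled PTPF and 99.6 ± 6.35 CPM in libraries labelled STATF (SD, n = 3 each). TARS followed FARSB with 0.24 (edgeR adjusted p = 0.00231), and the 13 that did not pass lay between -0.14 and 0.16. WARS2, the mitochondrial enzyme for tryptophan, had 14.2, 11.8 and 14.2 CPM in libraries labelled PTPF and 13.1, 13.7 and 12.2 CPM in libraries labelled STATF and did not pass (log2 fold change 0.04, edgeR adjusted p = 0.82). IARS, LARS and MARS did not pass without STATF library 1 (0.19, 0.15 and 0.18), nor did IARS and MARS without STATF library 3 (0.16 each) or LARS without PTPF library 2 (0.16). FARSA was called higher without PTPF library 2 (0.23) and QARS lower without PTPF library 1 (-0.21). With scaling by library totals alone, 3 of the 19 were higher and 2, KARS and QARS, were lower (-0.14 and -0.20).

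**Figure D4:**
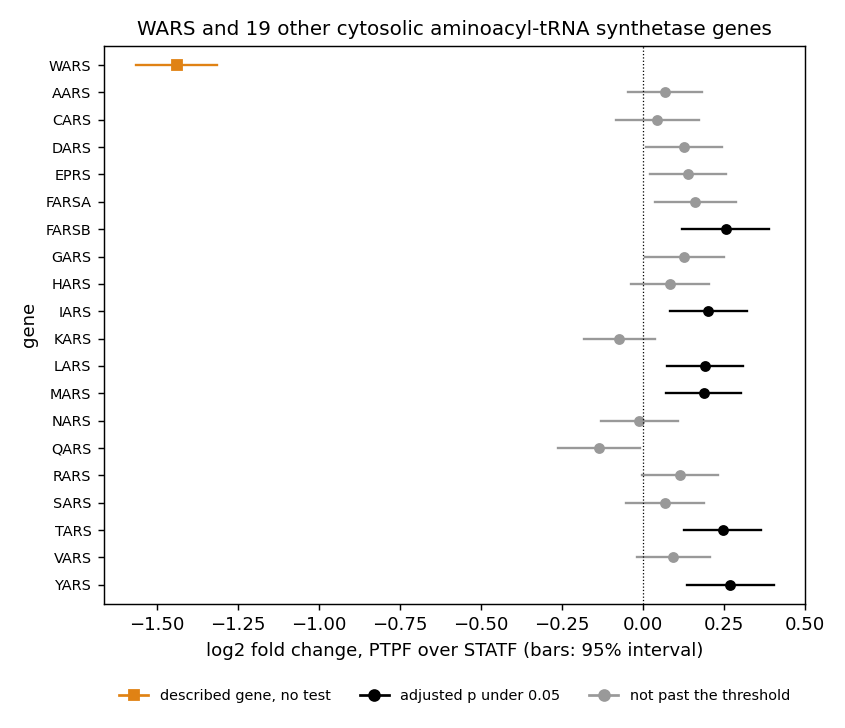
Log2 fold change of libraries labelled PTPF over libraries labelled STATF (95% intervals as bars) for WARS (orange square, no test) and 19 other cytosolic aminoacyl-tRNA synthetase genes, black where the adjusted p was under 0.05. WARS lies at -1.44 and the other genes between -0.14 and 0.27.

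Set in order per length, TDO2 and WARS were the most abundant of the 10 transcripts under either label. In libraries labelled PTPF TDO2 averaged 71.4 ± 5.24 TPM and WARS 32.4 ± 1.11 TPM, and in libraries labelled STATF TDO2 averaged 101.8 ± 8.78 TPM and WARS 91.8 ± 4.57 TPM (SD, n = 3 each). The TDO2 and WARS ranges were apart in libraries labelled PTPF, and came within 1 TPM of each other in libraries labelled STATF. That closeness depended on the length used. With the length of the principal coding transcript, TDO2 averaged 123.0 ± 12.7 and WARS 77.7 ± 5.14 CPM per kilobase in libraries labelled STATF. With no length, TDO2 averaged 210 CPM and WARS 228 CPM there. ACMSD and AFMID followed and were not separated from each other under either label (20.3 ± 1.46 and 19.1 ± 1.21 TPM in libraries labelled PTPF, 19.5 ± 0.599 and 19.3 ± 1.54 TPM in libraries labelled STATF). With no length, AFMID lay above ACMSD under both labels. Next came HAAO at 10.7 ± 0.898 TPM and QPRT at 9.96 ± 0.92 TPM in libraries labelled PTPF, whose ranges overlapped. In libraries labelled STATF the order was HAAO at 15.0 ± 0.785 TPM, IDO1 at 10.4 ± 0.771 TPM and QPRT at 9.24 ± 0.598 TPM, and these 3 ranges did not overlap. With no length, the IDO1 and QPRT ranges there overlapped. IDO2 and KMO stayed under 0.3 TPM in every library. KYNU, at 4.26 ± 0.49 TPM in libraries labelled PTPF and 3.77 ± 0.273 TPM in libraries labelled STATF, has coding transcripts of very unequal length, and its place in the order is uncertain.

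Interferon signalling genes were read beside IDO1 and WARS because both are known interferon-gamma targets. Of 11 tested, 7 were lower and 3 higher under the PTPF label, beside 11.6% lower and 10.1% higher of all genes. The list was chosen with earlier results of these libraries known. IFNG itself had 0 counts in all 6 libraries. The receptor chain IFNGR1 was higher, at 302.3, 300.2 and 290.0 CPM in libraries labelled PTPF against 157.8, 167.9 and 171.3 CPM in libraries labelled STATF (log2 fold change 0.84, edgeR adjusted p = 4.31e-12). The feedback inhibitors SOCS1 and SOCS3 were higher as well (0.87 and 1.38, edgeR adjusted p = 1.05e-08 and 7.31e-16), and BIN1, known from the mouse as a restraint on Ido1, was lower by a small amount (-0.30, edgeR adjusted p = 9.78e-05). IRF1, a transcription factor that binds the ISRE, was lower (-1.64, edgeR adjusted p = 1.27e-16), with 22.0% of its exon bases shared with C5orf56 on the opposite strand, at 4.24 CPM in libraries labelled PTPF and 8.27 CPM in libraries labelled STATF. Also called lower were JAK1, JAK2, IRF8 and IRF9 (-0.31, -0.40, -0.54 and -1.63), and IRF8 did not pass without PTPF library 3 (-0.37) or STATF library 2 (-0.47). IRF9 averaged 1.26 CPM in libraries labelled PTPF and 3.88 CPM in libraries labelled STATF. Of its exon bases 48.4% are shared with a gene on the same strand, so its level is uncertain.

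Glucocorticoids are known to induce TDO2, and genes of that response were also read. Of 8, chosen with earlier results known and all tested, 4 were lower under the PTPF label, where 11.6% of all genes were, and 0 were higher, a direction in which an unadjusted p under 0.05 in edgeR, DESeq2 and limma-voom gave 0 as well. The median of the 8 log2 fold changes was -0.20. TAT, the tyrosine aminotransferase that glucocorticoids induce together with TDO2 in rat liver, had 7.28, 7.33 and 8.36 CPM in libraries labelled PTPF, against 11.9, 11.1 and 11.3 CPM in libraries labelled STATF (-0.58, edgeR adjusted p = 4.95e-05). FKBP5, a chaperone of the receptor, had a log2 fold change of -0.34 (edgeR adjusted p = 0.000132), and the receptor gene NR3C1 did not pass (0.01). TSC22D3 and DUSP1 were lower (-0.20 and -0.22, edgeR adjusted p = 0.0184 and 0.00905). TSC22D3 did not pass without any 1 library other than PTPF library 1 (-0.15 to -0.21), and DUSP1 did not pass without PTPF library 2 (-0.15), STATF library 1 (-0.20) or STATF library 3 (-0.19).

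Over the 6 libraries, the genes whose profiles lay nearest to each of 5 of the 10 were found among 12473 protein-coding genes with a mean of at least 1 CPM, by the Euclidean distance between centred log2(CPM + 0.5) values. With 6 points in 2 groups, such a distance mainly reflects the size of the group difference and the library depths the genes share. The nearest to IDO1 were CXCL10 (distance 0.53), GBP4 (0.907) and CXCL11 (1.08). Their fitted log2 fold changes were -4.57, -4.12 and -6.65, beside -9.97 for IDO1, which is no bound. On the scale of the distance, with 0.5 CPM added, the IDO1 difference was -4.75. WARS was nearest to IFI44 (0.0834), OAS1 (0.118) and ADCY8 (0.133), with fitted log2 fold changes of -1.50, -1.46 and -1.55 beside -1.44. TDO2 was nearest to RGN (0.0922), LAP3 (0.0976) and BST2 (0.123), with fitted log2 fold changes of -0.46, -0.46 and -0.44 beside -0.45. KYNU was nearest to RPP38 (0.0884), CENPH (0.103) and NOCT (0.116), and KMO, at a few counts per library, to SPATA33 (0.243), MND1 (0.245) and LRR1 (0.269). No gene was among the nearest of more than 1 of these 5.

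In all, 4 of the 10 genes had groups that did not overlap in CPM, IDO1, TDO2, HAAO and WARS, each lower in libraries labelled PTPF. Among all genes tested, 35.7% had groups that did not overlap and 18.4% did so on the lower side. Nothing is read from that count either, since the same libraries chose the genes.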

How the data were processed

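Samples were grouped by their titles. CASAVA 1.8, HISAT2 2.0.5, featureCounts 1.5.0-p3 and GRCh38 are named in the processing, per the submitters' processing notes. Not given in the sources used here are the annotation, the strand setting and the handling of multi-mapping reads. NAMPT, GOT2 and SLC7A5 have pseudogene copies, so their counts are uncertain. The authors deposited raw read counts per gene, not normalized, with a gene length in bases, which is another unit. All 58735 gene identifiers and positions matched GENCODE 29, from which exon overlaps were taken.

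The 10 genes, the gene lists and the tests were chosen with earlier results of these data known. The function filterByExpr kept 17844 genes, TMM gave scaling factors of 0.953 to 1.03, and edgeR 4.0.16 in R 4.3.3 fitted its robust quasi-likelihood model with the group as the only term. Adjusted p-values are Benjamini-Hochberg over all genes kept, called under 0.05. Positive log2 fold changes mean higher in libraries labelled PTPF. CPM values use the TMM-scaled totals, and TPM the deposited lengths. A count of 0 allowed 3 counts, or 0.072 to 0.0919 CPM. Intervals on counts and these floors cover counting error only, as PCR copies cannot be told from separate molecules without molecular identifiers. The text names the 10 genes, STAT3, PTPRD, members of the lists, the cell type markers and the 3 nearest profiles of 5 genes. A gene that this rule took is not reported here. The hepatocyte, biliary, myeloid, T and NK, endothelial and stellate marker lists were also read. Motifs were searched in RefSeq promoter windows, 250 bases before to 50 after a start.

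Within a group, libraries differed beyond sampling noise, with chi-square values of 4.01 to 10.9 per degree of freedom, and each counted as 1 replicate. Alternatives were RLE, upper-quartile and library-total scaling, DESeq2 1.42.0, voom in limma 3.58.1, filters set to none or to 50 counts in 3 libraries, a replicate block, no mitochondrial genes, an adjusted p of 0.01 and leaving out each library. Tables used pandas 2.3.3 and scipy 1.17.1 in Python 3.11.15.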

Additional observations from a re-analysis of the deposited data

How the results depend on the processing

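Over the alternatives run, log2 fold changes ranged from -0.52 to -0.36 for TDO2, -0.50 to -0.35 for HAAO and -1.50 to -1.40 for WARS, given as descriptions since these genes were chosen on the same counts. Over all genes 3863 passed (1801 higher, 2062 lower in libraries labelled PTPF). With scaling by library totals 4145 passed (1164 higher, 2981 lower), and at an adjusted p of 0.01 2551 passed (1137 higher). Leaving out 1 library gave 2830 to 3808 calls, 1271 to 1773 of them higher. Of the 10 genes, the count on the higher side, 1 (KYNU), became 0 with library totals and at an adjusted p of 0.01. Leaving out 1 library it ranged from 0 to 1, and it was 0 without PTPF library 1, STATF library 2 or STATF library 3. Without PTPF library 2 the 1 gene was QPRT. With library totals 2 aminotransferases passed in place of 1. At an adjusted p of 0.01, 1 gene of the oxidation arm and 3 synthetases passed. Without 1 library, the transporters had 1 to 3 calls, the oxidation arm 1 to 2, the synthetases 3 to 7 and the glucocorticoid list 2 to 4. Transporters fell to 1 without STATF library 2 or 3, the oxidation arm to 1 without PTPF library 3 or STATF library 1 or 3, the synthetases to 3 without STATF library 1, and the glucocorticoid list to 2 without PTPF library 2 or STATF library 1 or 3. The IDO1 share of dioxygenase TPM in libraries labelled STATF was 5.93% with no length and 5.34% with the principal transcript length. The cause of these shifts was not tested. A replicate block gave 4145 calls. Libraries of the same number in the 2 groups had deviations correlated at 0.03, 0.06 and 0.00, too low to take the numbers as a pairing, and 2 of the 3 PTPF-labelled libraries correlated best with their own number. Fewer than 50 counts per group leave IDO2 and KMO without a readable direction.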
